A study of Arabidopsis thaliana with 24 samples.

Results

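Transcript levels are described across all the samples for the cytochromes P450 CYP71B23 (AT3G26210), CYP71B26 (AT3G26290), CYP71B28 (AT1G13090) and CYP71B34 (AT3G26300) of Arabidopsis thaliana. The 4 genes were given by name and locus, and earlier results of these data were known when they were chosen. Each has 1 probe set annotated to that gene alone (257623_at, 257628_at, 262780_at and 256870_at), and these are 4 of the 22746 probe sets on the array that are not controls. All 4 were among the 15477 probe sets bright enough to be tested.

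Cytochromes P450 are heme enzymes that insert 1 oxygen atom into small molecules. In plants most of them sit in the membrane of the endoplasmic reticulum and receive electrons from NADPH-cytochrome P450 reductase. CYP71B is one of the largest P450 subfamilies of Arabidopsis. Among its known enzymes are CYP71B15 (PAD3), which completes the synthesis of the defence compound camalexin, and CYP71B6, which works on indole-3-acetonitrile. The substrates of the 4 enzymes described here are not given in the sources used. The RefSeq gene table for assembly TAIR10.1 lists 36 CYP71B symbols, 23 of them on chromosome 3 and 5 on chromosome 1, and 3 of the 36 are pseudogenes. In that table CYP71B23 lies between CYP71B22 and CYP71B3 on chromosome 3. CYP71B26 and CYP71B34 lie on the same chromosome, with CYP71B33 between them, and CYP71B28 lies between CYP71B2 and CYP71B29 on chromosome 1. Transcripts of such close relatives can bind each other's probes, and how much of any signal came from a relative was not tested.

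The arrays measured biotin-labelled total RNA of Col-0 wild-type plants, all kept in continuous light, in 8 sets of 3 arrays. ATGE_101 was the green parts of seedlings on 0.5x GM plant medium with 5% sucrose at 20 °C, and ATGE_100 was its counterpart without sucrose. ATGE_97 and ATGE_96 were a further such pair, with and without 5% sucrose at 20 °C, and for these the submitters remarked that the bulk of the plants were alike in appearance to those of ATGE_7 at 7 days of age. ATGE_22, ATGE_24 and ATGE_23 were whole plants on soil at 23 °C and 65% relative humidity, taken between the transition to flowering and bolting. The labels call all 3 sets samples of developmental drift and tell them apart only by number. ATGE_7 was the green parts of seedlings on soil, also at 23 °C and 65% relative humidity. The labels give no age for ATGE_100 and ATGE_101 and leave it unsaid if replicates were grown as separate cultures, so p-values measure only the spread between these arrays, which may be technical.

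Values are intensities on the authors' linear MAS5 scale, on which the 2% trimmed mean of every array was 100. Array medians lay between 35.2 and 43, and the correlation of 2 arrays of a set between 0.968 and 0.992. Differences are given on the scale of log2(intensity + 6.75) with their standard error (SE, from a model over all 24 arrays), the first set named minus the second, and folds are ratios of mean intensities. A gene was called where limma's Benjamini-Hochberg adjusted p over all 15477 probe sets was under 0.05. Of the green-tissue markers 2 of 17 had a probe set annotated to them alone: RCA, the Rubisco activase, averaged 3050 to 4760 in the 8 sets and LHCB4.1, a light-harvesting protein, 3290 to 5390. Of the root markers 2 of 10 had one, and EXPA7, an expansin of root hairs, stayed at set means of 5.24 to 10.9, below the intensity of 22.8 that a probe set had to exceed on at least 3 arrays to be tested. PYK10, a beta-glucosidase abundant in roots and seedlings, averaged 1000 in ATGE_101, 1210 in ATGE_100, 2640 in ATGE_97, 2280 in ATGE_96, 28.7 in ATGE_22, 12.6 in ATGE_24, 34.4 in ATGE_23 and 747 in ATGE_7. None of the 6 floral markers had a probe set annotated to it alone. The annotation named no gene for 8730 of the 22746 probe sets, so genes without an annotated probe set may still be on the array. The tissue is bulk, so fewer cells of a type and less RNA per cell cannot be told apart in any result below.

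The 4 genes had 4 different profiles over the 8 sets. CYP71B23 was highest in ATGE_97 and ATGE_96, at about the same level in ATGE_101, ATGE_100 and the whole plants, and near the floor of the array in the soil seedlings. CYP71B26 was highest in both sucrose sets. CYP71B28 was highest in ATGE_24 and lowest in ATGE_96, both clear of the next set. CYP71B34 moved little, its highest set mean being 1.56 times its lowest, against 23.5 times for CYP71B23, 3.58 times for CYP71B26 and 3.43 times for CYP71B28.

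**Figure D1:**
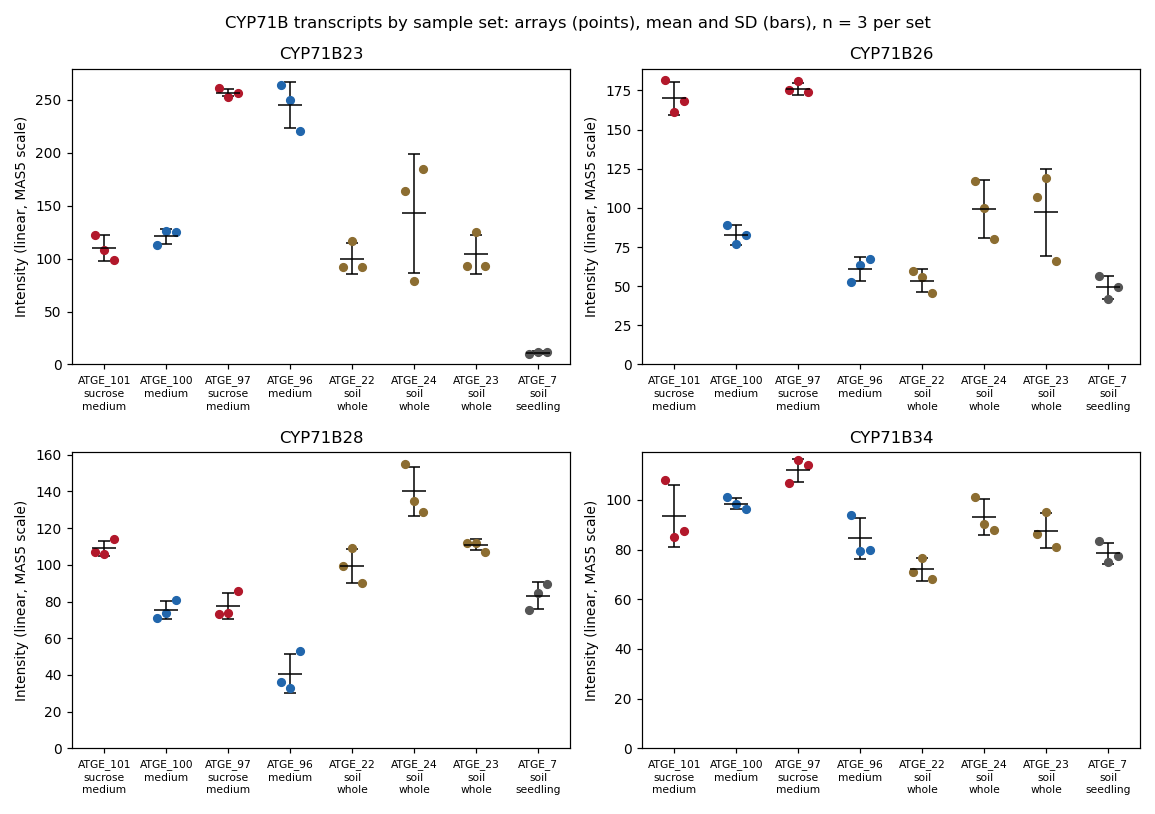
Intensity (linear axis from 0) of the 4 genes on each of the 24 arrays; points are arrays, bars the mean and SD of 3 arrays, and sets run from ATGE_101 at the left to ATGE_7 at the right, red for sucrose medium, blue for medium, brown for whole plants and grey for soil seedlings. CYP71B23 averaged 257 in ATGE_97 and 10.9 in ATGE_7, CYP71B26 averaged 176 and 170 in the sucrose sets ATGE_97 and ATGE_101, and CYP71B34 stayed between 68.1 and 116 on every array.

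Sucrose was the first comparison. CYP71B26 rose on sucrose medium in both pairs, CYP71B28 rose in both with smaller differences, CYP71B34 rose in the ATGE_97 and ATGE_96 pair, and CYP71B23 was not called in either. Of the 4 genes 3 were called higher and 0 lower in ATGE_97 against ATGE_96, where 20.9% of all probe sets tested were called higher and 12.1% lower. In ATGE_101 against ATGE_100, 2 were called higher and 0 lower, beside 9.9% higher and 6.76% lower among all tested. The median difference of the 4 genes was 0.62 and 0.22 in the 2 pairs, beside 0.08 and 0.03 over all probe sets tested.

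CYP71B26 had intensities of 175, 181 and 174 in ATGE_97, against 52.4, 63.2 and 67.5 in ATGE_96. In the other pair it had 182, 161 and 168 in ATGE_101, against 89, 76.7 and 82.4 in ATGE_100. In both pairs every sucrose array was above every array without sucrose. The ATGE_97 mean was 2.89 times the ATGE_96 mean, a difference of 1.44 (SE 0.16, adjusted p = 9.3e-07). The ATGE_101 mean was 2.06 times the ATGE_100 mean, a difference of 0.99 (SE 0.16, adjusted p = 0.00021). Among all probe sets tested, 0.672% had a larger positive difference in the first of these comparisons and 1.28% in the second. The sucrose effect in ATGE_101 and ATGE_100 was lower than that in ATGE_97 and ATGE_96 by 0.45, and the 95% interval of that difference ran from -0.93 to 0.03 (adjusted p = 0.22), so neither a different nor an equal size of response in the pairs was shown. With only the 4 sets of the comparison in the model the same difference was called (adjusted p = 0.029), and over 22 alternatives the adjusted p ran from 0.029 to 0.4.

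CYP71B28 had 73.1, 73.9 and 85.9 in ATGE_97, against 36.4, 32.9 and 52.9 in ATGE_96. Replicate C of ATGE_96 lay above its other arrays but below all 3 of ATGE_97. The ratio of means was 1.91 and the difference 0.85 (SE 0.12, adjusted p = 1.4e-05). In the other pair CYP71B28 had 107, 106 and 114 in ATGE_101, against 71.2, 73.7 and 80.8 in ATGE_100, again without overlap. There the ratio was 1.45 and the difference 0.5 (SE 0.12, adjusted p = 0.0059). That call was lost without the 3 arrays with the lowest intensities of the BioB spike-in control, which are replicate C of ATGE_97 and replicates A of ATGE_100 and ATGE_101 (difference 0.47, adjusted p = 0.057). The effect in ATGE_101 and ATGE_100 minus that in ATGE_97 and ATGE_96 was -0.35 (95% interval -0.7 to 0, adjusted p = 0.19), and without replicate C of ATGE_96 it was -0.53 (adjusted p = 0.023).

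CYP71B34 had 107, 116 and 114 in ATGE_97, against 94, 79.5 and 80 in ATGE_96, and the sets did not overlap. The ratio of means was 1.33 and the difference 0.39 (SE 0.09, adjusted p = 0.0033). In the other pair it had 108, 85.2 and 87.5 in ATGE_101, against 101, 98.3 and 96.3 in ATGE_100. Replicate A of ATGE_101 lay above and the other arrays of that set lay below every array of ATGE_100, and the difference was -0.07 (95% interval -0.27 to 0.12, adjusted p = 0.65). Among the 4 genes CYP71B34 was the 1 whose sucrose effects were called different between the pairs, by -0.46 (SE 0.13, adjusted p = 0.028), where 6.61% of all probe sets tested were called lower and 5.36% higher. The call was lost without any 1 of 7 arrays (replicates B or C of ATGE_96, ATGE_97 or ATGE_101, or replicate A of ATGE_100), with adjusted p between 0.056 and 0.079.

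CYP71B23 had 261, 253 and 257 in ATGE_97, against 264, 250 and 221 in ATGE_96, and 122, 108 and 98.4 in ATGE_101, against 113, 126 and 125 in ATGE_100. The arrays overlapped in both pairs. The differences were 0.07 (95% interval -0.34 to 0.48, adjusted p = 0.82) and -0.14 (95% interval -0.55 to 0.26, adjusted p = 0.68), which leaves room for a change of either sign. The 3′ to 5′ signal ratio of the actin control, a measure of RNA integrity and of labelling, averaged 8.62 ± 0.425 in ATGE_101 and 3.6 ± 0.789 in ATGE_100, and 3.8 ± 0.375 in ATGE_97 and 4.12 ± 1.92 in ATGE_96 (SD, n = 3 each). Its part in the sucrose results was not tested.

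**Figure D2:**
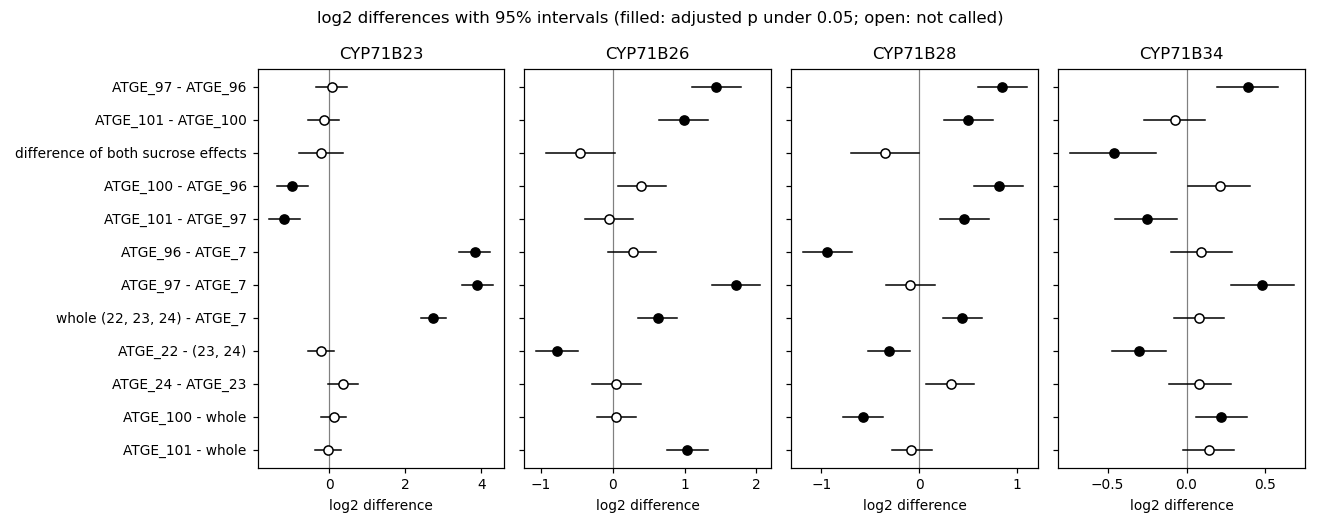
log2 differences of the 4 genes (1 panel each, with its own horizontal axis) in the 12 comparisons, first set minus second; points are estimates, filled where the adjusted p was under 0.05, and lines are 95% intervals. CYP71B26 and CYP71B28 lie to the right of 0 in both sucrose comparisons at the top, and CYP71B23 has its largest differences, 3.83 and 3.9, for ATGE_96 and ATGE_97 over ATGE_7.

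The ATGE_101 and ATGE_100 seedlings were then set against the ATGE_97 and ATGE_96 seedlings on the same medium. The labels name the same tissue, medium, light and temperature for both pairs and add the remark on plant appearance only to ATGE_97 and ATGE_96. CYP71B23 was lower and CYP71B28 higher in ATGE_101 and ATGE_100, with and without sucrose. Without sucrose (ATGE_100 against ATGE_96) 1 of the 4 genes was called higher and 1 lower, beside 17.7% and 12.7% of all probe sets tested. With sucrose (ATGE_101 against ATGE_97) 1 was called higher and 2 lower, beside 19.1% and 17.7%.

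CYP71B23 averaged 121 ± 6.93 in ATGE_100, against 245 ± 21.8 in ATGE_96 (SD, n = 3 each). The difference was -0.97 (SE 0.2, adjusted p = 7e-04). It averaged 110 ± 12.1 in ATGE_101, against 257 ± 3.59 in ATGE_97, a difference of -1.19 (SE 0.2, adjusted p = 7e-05). In neither comparison did any array of the one set reach those of the other. Both calls held in all 16 alternative analyses of each comparison. PYK10 was lower in the same comparisons, with means of 1210 in ATGE_100, against 2280 in ATGE_96 (difference -0.91, adjusted p = 0.016), and 1000 in ATGE_101, against 2640 in ATGE_97 (difference -1.4, adjusted p = 0.00045). The actin 3′ to 5′ ratio was 8.62 in ATGE_101, against 3.8 in ATGE_97, and 3.6 in ATGE_100, against 4.12 in ATGE_96. The part of either in the results for these pairs was not tested.

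CYP71B28 moved the other way. It averaged 75.2 ± 4.94 in ATGE_100, against 40.7 ± 10.6 in ATGE_96, a ratio of 1.85 and a difference of 0.81 (SE 0.12, adjusted p = 2.6e-05). With sucrose it averaged 109 ± 4.23 in ATGE_101, against 77.6 ± 7.21 in ATGE_97, a ratio of 1.4 and a difference of 0.46 (SE 0.12, adjusted p = 0.0048). The arrays of the sets compared did not overlap in either case.

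CYP71B26 differed by 0.4 without sucrose (95% interval 0.07 to 0.74, adjusted p = 0.065) and by -0.05 with it (95% interval -0.39 to 0.29, adjusted p = 0.84). Every ATGE_100 array was above every ATGE_96 array for this gene although the test across all probe sets was not passed, and the call was made when only those sets entered the model (adjusted p = 0.019). CYP71B34 differed by 0.21 without sucrose (95% interval 0.01 to 0.4, adjusted p = 0.1, and 0.049 without replicate A of ATGE_96). With sucrose CYP71B34 was lower in ATGE_101 (difference -0.25, SE 0.09, adjusted p = 0.039), with overlapping arrays, and that call was lost in 6 of 16 alternatives, among them the omission of replicate B or C of ATGE_97 or of ATGE_101 (adjusted p between 0.057 and 0.17).

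Seedlings on medium were next compared with the soil seedlings of ATGE_7, which they were noted to resemble. Medium and soil here also differ in temperature, so the effects of both cannot be told apart. CYP71B23 was the gene that stood out. Its arrays read 264, 250 and 221 in ATGE_96 and 261, 253 and 257 in ATGE_97, against 9.41, 11.3 and 12.1 in ATGE_7. The 3 soil values are below the filter intensity of 22.8, so the size of the ratio rests on a signal close to the array's floor. The ATGE_96 mean was 22.4 times and the ATGE_97 mean 23.5 times the ATGE_7 mean. On the log2 scale, where the added 6.75 shrinks such a ratio, the differences were 3.83 (SE 0.2, adjusted p = 3.3e-13) and 3.9 (SE 0.2, adjusted p = 5e-13). With the pseudocount multiplied or divided by 4, and in the other alternatives, the first ran from 2.84 to 4.29 and remained called. Among all probe sets tested 0.969% had a larger positive difference in ATGE_96 against ATGE_7. The root marker PYK10 was also higher in ATGE_97 and ATGE_96 (2640 and 2280) than in ATGE_7 (747). In the whole plants, where CYP71B23 averaged 116, PYK10 was at 34.4 or less. RCA was lower than in ATGE_7 in ATGE_96 (-0.39, adjusted p = 0.017) and ATGE_97 (-0.48, adjusted p = 0.0046). LHCB4.1 was called lower in ATGE_97 (-0.36) but not in ATGE_96 (-0.23). The actin 3′ to 5′ ratio averaged 4.12 in ATGE_96 and 3.8 in ATGE_97, against 5.96 in ATGE_7. The same ratio of the UBQ control averaged 2.46 and 2.54, against 3.93. That of the GAPDH control averaged 1.41 in ATGE_96, against 0.933 in ATGE_7. The part of these markers and ratios in the CYP71B23 result or the other results against soil was not tested.

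CYP71B28 had its lowest values in ATGE_96, 36.4, 32.9 and 52.9, against 75.4, 84.5 and 89.8 in ATGE_7. The sets did not overlap, and the gene fell by 0.94 (SE 0.12, adjusted p = 4.5e-07), to a ratio of 0.489. With sucrose in the medium the difference from soil was -0.09 (95% interval -0.34 to 0.16, adjusted p = 0.51), and the 73.1, 73.9 and 85.9 of ATGE_97 overlapped the soil values.

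CYP71B26 differed from soil by 0.28 in ATGE_96 (95% interval -0.06 to 0.61, adjusted p = 0.14). In ATGE_97 its mean of 176 was 3.58 times the 49.3 of ATGE_7, a difference of 1.72 (SE 0.16, adjusted p = 9.6e-09). CYP71B34 differed from soil by 0.09 in ATGE_96 (95% interval -0.1 to 0.29, adjusted p = 0.39) and by 0.48 in ATGE_97 (SE 0.09, adjusted p = 0.00014). In ATGE_96 against ATGE_7, 1 of the 4 genes was called higher and 1 lower, beside 30.3% and 40.4% of all probe sets tested, whose median difference was -0.12 (and -0.11 after quantile normalization). In ATGE_97 against ATGE_7, 3 were called higher and 0 lower, beside 31.8% and 33.5%. The comparisons of ATGE_97 and ATGE_96 with ATGE_7 share the soil arrays.

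**Figure D3:**
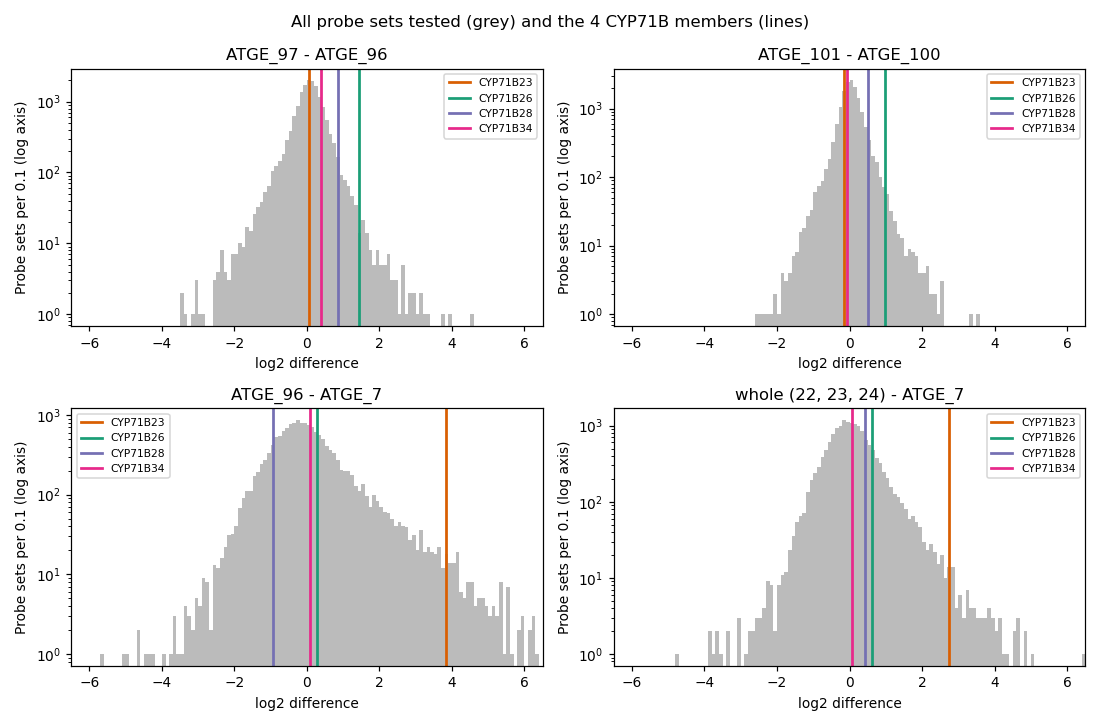
Numbers of all probe sets tested per 0.1 of log2 difference (grey, log vertical axis) in 4 comparisons, with coloured lines at the 4 genes. CYP71B23 sits at 3.83 in ATGE_96 minus ATGE_7 and at 2.74 in whole plants minus ATGE_7, in the sparse right tail, while CYP71B34 lies close to the bulk of the probe sets in all 4 panels.

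The whole plants were compared with the soil seedlings grown at the same temperature and humidity. Tissue sampled and stage both differ between them, and the effects of these cannot be told apart. CYP71B23, CYP71B26 and CYP71B28 were called higher in whole plants and CYP71B34 was not called. That is 3 of 4 higher and 0 lower, beside 33.3% higher and 31.9% lower among all probe sets tested. CYP71B23 had 92.2, 117 and 91.9 in ATGE_22, 164, 78.9 and 185 in ATGE_24 and 92.8, 125 and 93.3 in ATGE_23, against 9.41, 11.3 and 12.1 in ATGE_7. All 9 whole-plant arrays were above all 3 soil seedling arrays, with replicate B of ATGE_24 the lowest of the 9. The ratio of means was 10.6 and the difference 2.74 (SE 0.16, adjusted p = 6.8e-12).

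CYP71B28 averaged 99.4 ± 9.32 in ATGE_22, 140 ± 13.4 in ATGE_24 and 111 ± 3.01 in ATGE_23, against 83.2 ± 7.29 in ATGE_7 (SD, n = 3 each). The difference was 0.44 (SE 0.1, adjusted p = 0.00048) and the sets did not overlap, the lowest whole-plant array reading 89.9 and the highest soil seedling array 89.8. CYP71B26 averaged 53.6 in ATGE_22, 99.1 in ATGE_24 and 97.1 in ATGE_23, against 49.3 in ATGE_7. Its difference of 0.63 (SE 0.13, adjusted p = 0.00033) was called, but the ATGE_22 arrays, at 59.5, 55.9 and 45.4, overlapped the 56.6, 41.8 and 49.6 of ATGE_7. CYP71B34 differed by 0.08 (95% interval -0.08 to 0.24, adjusted p = 0.35). PYK10 was at 12.6 to 34.4 in the whole-plant sets, against 747 in ATGE_7, and the actin 3′ to 5′ ratio averaged 9.5 in ATGE_22, 9.02 in ATGE_24 and 10 in ATGE_23, against 5.96 in ATGE_7. The GAPDH ratio averaged 1.53 in ATGE_22, 1.83 in ATGE_24 and 1.16 in ATGE_23, against 0.933 in ATGE_7. The UBQ ratio averaged 3.46, 3.8 and 3.06 in the same whole-plant sets, against 3.93 in ATGE_7. The part of PYK10 or of the 3′ to 5′ ratios in these results was not tested.

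Among the whole plants, 3 genes were called lower in ATGE_22 than in the other sets. In ATGE_22 against ATGE_23 and ATGE_24 together, 0 of the 4 genes were called higher and 3 lower, beside 7.69% and 9.89% of all probe sets tested. CYP71B26 had 59.5, 55.9 and 45.4 in ATGE_22, against 117, 100 and 80.2 in ATGE_24 and 107, 119 and 65.8 in ATGE_23. No ATGE_22 array reached the others, and the difference was -0.78 (SE 0.14, adjusted p = 0.00041), called in all 19 alternatives. CYP71B34 had 70.9, 76.8 and 68.1 in ATGE_22, against 101, 90.2 and 87.7 in ATGE_24 and 86.2, 95.1 and 81.2 in ATGE_23. Its difference was -0.3 (SE 0.08, adjusted p = 0.012), lost without replicate C of ATGE_22 (adjusted p = 0.053) and when only the whole-plant sets entered the model (adjusted p = 0.079). For CYP71B28 the arrays overlapped, with 109 on replicate B of ATGE_22 and 107 on replicate C of ATGE_23. CYP71B28 differed by -0.31 (SE 0.1, adjusted p = 0.044), a call lost in 13 of 19 alternatives (adjusted p between 0.024 and 0.17 over all of them), among them the omission of any 1 of 7 arrays. These are replicates A and C of ATGE_22, A, B and C of ATGE_23, and A and B of ATGE_24. CYP71B23 was not called (-0.22, 95% interval -0.57 to 0.13, adjusted p = 0.42). Without replicate B of ATGE_24 its difference was -0.4 (adjusted p = 0.011).

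In ATGE_24 against ATGE_23 none of the 4 genes was called by limma, beside 0.42% higher and 0.433% lower among all probe sets tested. At an unadjusted p under 0.05 the 1 gene was CYP71B28, with 155, 135 and 129 in ATGE_24, against 112, 112 and 107 in ATGE_23 (difference 0.32, 95% interval 0.07 to 0.56, adjusted p = 0.23). CYP71B23 read 78.9 on replicate B of ATGE_24 beside 164 and 185 on the other arrays of that set. Without that array its difference between ATGE_24 and ATGE_23 was 0.72 (adjusted p = 0.0082), against 0.36 with it (95% interval -0.04 to 0.77, adjusted p = 0.44).

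Against the whole plants, the ATGE_100 seedlings had 1 of the 4 genes called higher and 1 lower, beside 27.9% and 34% of all probe sets tested. CYP71B28 was lower (difference -0.57, SE 0.1, adjusted p = 2.9e-05), at a ratio of 0.646, and no ATGE_100 array reached the whole-plant arrays. CYP71B34 was higher by 0.22 (SE 0.08, adjusted p = 0.018) with overlapping arrays, and that call was lost without replicate A of ATGE_100 (adjusted p = 0.067). The ATGE_101 seedlings had 1 gene called higher and 0 lower, beside 28.8% and 30.5%. That gene was CYP71B26, with 182, 161 and 168 in ATGE_101, against a highest whole-plant array of 119 (ratio of means 2.05, difference 1.04, SE 0.13, adjusted p = 8.6e-07). CYP71B23 differed from the whole plants by 0.12 in ATGE_100 (95% interval -0.22 to 0.45, adjusted p = 0.55) and by -0.03 in ATGE_101 (95% interval -0.36 to 0.31, adjusted p = 0.89). PYK10 averaged 1210 in ATGE_100 and 1000 in ATGE_101, against 25.2 in the whole plants. The green-tissue markers were lower in ATGE_100 than in the whole plants (RCA -0.58, adjusted p = 0.00014, and LHCB4.1 -0.67, adjusted p = 3.2e-06) and in ATGE_101 (-0.53, adjusted p = 0.00042, and -0.65, adjusted p = 5.5e-06). The actin ratio was 3.6 in ATGE_100 and 8.62 in ATGE_101, against set means of 9.02 to 10 in the whole plants. The GAPDH ratio was 1.39 in ATGE_100 and 1.33 in ATGE_101, against set means of 1.16 to 1.83 in the whole plants. The UBQ ratio was 2.32 in ATGE_100 and 2.31 in ATGE_101, against 3.06 to 3.8. The part of any of these was not tested. Tissue sampled, stage, substrate and temperature all differ between these seedlings and the whole plants, and their effects cannot be told apart. All these comparisons share the whole-plant arrays.

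Ordered by mean level, CYP71B23 ran from ATGE_97 (257) and ATGE_96 (245), whose arrays overlapped, through ATGE_24, ATGE_100, ATGE_101, ATGE_23 and ATGE_22, each overlapping the next, down to ATGE_7 (10.9). CYP71B26 ran from ATGE_97 (176) and ATGE_101 (170), which overlapped, through ATGE_24, ATGE_23 and ATGE_100, to an overlapping group of ATGE_96, ATGE_22 and ATGE_7 (49.3). CYP71B28 ran from ATGE_24 (140) through overlapping ATGE_23, ATGE_101 and ATGE_22, then overlapping ATGE_7, ATGE_97 and ATGE_100, to ATGE_96 (40.7). In CYP71B34 only ATGE_97 (112), at the top, was clear of the set next to it, and the other 7 sets each overlapped their neighbour down to ATGE_22 (72).

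Of the other CYP71B genes 15 had a probe set annotated to them alone. Of these, 7 were tested (CYP71B5, CYP71B6, CYP71B22, CYP71B24, CYP71B29, CYP71B35 and CYP71B36). The other 8 (CYP71B16, CYP71B21, CYP71B25, CYP71B27, CYP71B30P, CYP71B31, CYP71B37 and CYP71B38) never exceeded the filter intensity, the highest of their array values being 17.7. On sucrose, 3 of the 7 were called higher in ATGE_97 against ATGE_96 and 0 lower, beside 20.9% and 12.1% of all probe sets tested. They were CYP71B22 (0.7, adjusted p = 0.0044), CYP71B36 (0.66, adjusted p = 0.038, lost in 9 of 15 alternatives, among them the omission of replicate A or B of ATGE_96 or of any ATGE_97 array) and CYP71B6 (0.34, adjusted p = 0.0077). CYP71B36 exceeded the filter intensity only on replicates B (27.3) and C (23.8) of ATGE_97 and A (25.3) of ATGE_24. It was thus tested mainly through the set where it is high, and its calls with ATGE_97, here and below, carry no independent weight. In ATGE_101 against ATGE_100, 1 of the 7 was called higher, CYP71B6 (0.32, adjusted p = 0.021), and 1 lower, CYP71B29 (-0.54, adjusted p = 0.019), beside 9.9% and 6.76%. Without the 3 arrays of lowest BioB intensity the adjusted p was 0.16 for CYP71B6 and 0.082 for CYP71B29. The CYP71B6 call was also lost without replicate A or C of ATGE_100 or replicate A or B of ATGE_101 (adjusted p between 0.052 and 0.081), and the CYP71B29 call without replicate C of ATGE_100 (0.09) or replicate B of ATGE_101 (0.095).

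Against the soil seedlings, 6 of the 7 other genes were called higher in ATGE_97 and 0 lower, beside 31.8% and 33.5% of all probe sets tested. CYP71B36, tested mainly through its ATGE_97 values, was among the 6, as were CYP71B22 (2.35), CYP71B29 (1.54) and CYP71B24 (1.24). In ATGE_96 against ATGE_7, 4 of the 7 were called higher and 1 lower, beside 30.3% and 40.4%. The 4 were CYP71B22 (1.64), CYP71B29 (1.54), CYP71B24 (1.03) and CYP71B5 (0.83), and the 1 lower was CYP71B35 (-0.49). The median difference of the 7 was 0.96 and 0.83 in these comparisons, beside -0.02 and -0.12 over all probe sets tested. In whole plants against ATGE_7, 3 of the 7 were called higher (CYP71B22, CYP71B24 and CYP71B35) and 0 lower, beside 33.3% and 31.9%. In ATGE_100 against ATGE_96, 2 of the 7 were called higher (CYP71B22, 1.03, and CYP71B35, 0.58) and 1 lower (CYP71B29, -0.59), beside 17.7% and 12.7%. In ATGE_101 against ATGE_97, 1 was called higher (CYP71B35, 0.59) and 2 lower (CYP71B29, -1.13, and CYP71B36, -0.81), beside 19.1% and 17.7%. The CYP71B35 calls were lost in 9 and 7 of 15 alternatives, with adjusted p up to 0.17 and 0.25, among them the omission of replicate B or C of ATGE_96, A or B of ATGE_100, B of ATGE_97, and A or B of ATGE_101. The CYP71B36 call was lost without the 3 arrays of lowest BioB intensity (adjusted p = 0.063), and the CYP71B35 call in whole plants without replicate B2 of ATGE_7 (adjusted p = 0.14). None of the 7 was called among the whole-plant sets. Of all probe sets tested, 7.69% were called higher and 9.89% lower in ATGE_22 against ATGE_23 and ATGE_24. In ATGE_24 against ATGE_23 the shares were 0.42% and 0.433%. Against the whole plants CYP71B5 was called higher in ATGE_100 (0.92) and in ATGE_101 (0.93), in all 22 alternatives of each. With it, 3 of the 7 were called higher and 1 lower in ATGE_100, beside 27.9% and 34%, and 3 higher and 0 lower in ATGE_101, beside 28.8% and 30.5%. Of these, CYP71B24 (lost in 5 of 22 alternatives) and CYP71B35 (10 of 21) in ATGE_100 and CYP71B29 (4 of 22) in ATGE_101 depended on single arrays, CYP71B24 on replicate B of ATGE_24 and A or C of ATGE_100, CYP71B29 on replicate A or C of ATGE_101, and CYP71B35 on replicate A or C of ATGE_22, A of ATGE_23, A or C of ATGE_24, or A or C of ATGE_100.

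**Figure D4:**
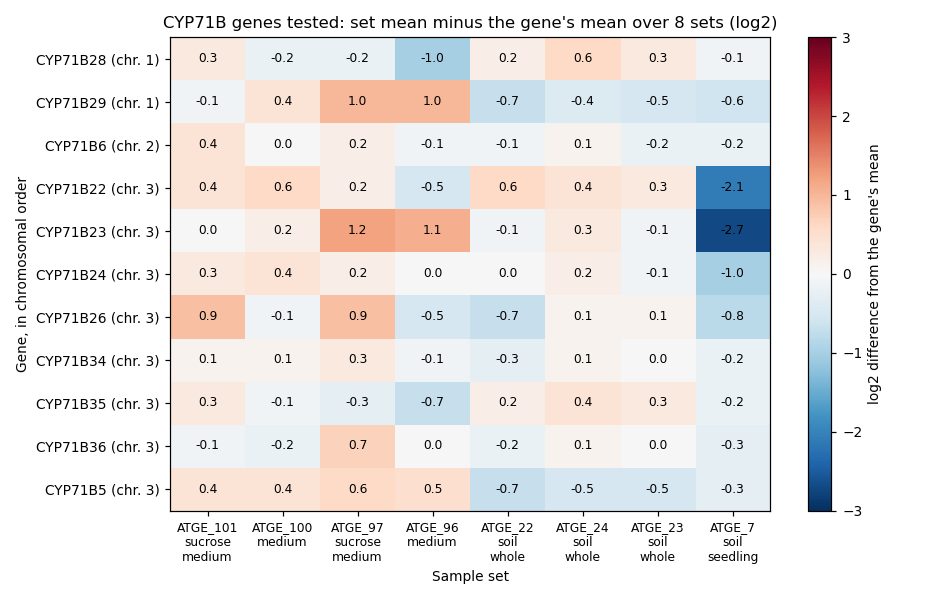
Set means of the 11 CYP71B genes tested (rows, in chromosomal order) in the 8 sets (columns), each as the log2 difference from that gene's own mean over the 8 sets; red is higher and blue lower. CYP71B22, CYP71B23 and CYP71B24, close together on chromosome 3, have their lowest means in the soil seedlings of ATGE_7 at the right, as do CYP71B26 and CYP71B36. CYP71B28 and CYP71B29 on chromosome 1 differ in sign in ATGE_96.

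CYP71B22 and CYP71B24, on either side of CYP71B23, also had their lowest levels in the soil seedlings, as did CYP71B26 (49.3) and CYP71B36 (9.12). CYP71B22, the gene before CYP71B23, had 88.4, 90.3 and 87.9 in ATGE_97 and 46.3, 46.3 and 65.2 in ATGE_96, against 13.4, 11.6 and 11.2 in ATGE_7. Its difference was 2.35 in ATGE_97 (SE 0.18, adjusted p = 3.1e-10) and 1.64 in ATGE_96 (SE 0.18, adjusted p = 4.5e-08). CYP71B22 averaged 106 in the whole plants, against 12.1 in ATGE_7 (difference 2.55, SE 0.15, adjusted p = 4.7e-12). None of its ATGE_7 arrays exceeded the filter intensity, as was the case for CYP71B23. CYP71B24, on the other side and beyond CYP71B3, averaged 70.8 in ATGE_97, 59.6 in ATGE_96 and 60.7 in the whole plants, against 26.1 in ATGE_7, and was called in all 3 comparisons (1.24, 1.03 and 1.03). CYP71B22 and CYP71B23 parted elsewhere. CYP71B22 was higher in ATGE_100 than in ATGE_96 (114 against 52.6, difference 1.03, adjusted p = 0.00015), where CYP71B23 was lower. Whether CYP71B22 and CYP71B24 differed from CYP71B23 in any response was not tested.

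CYP71B28 and its neighbour CYP71B29 went in opposite directions between medium without sucrose and soil. CYP71B29 had 67.8, 64.6 and 74.8 in ATGE_96, against 17, 25.7 and 16.1 in ATGE_7, with no overlap. It was higher by 1.54 (SE 0.15, adjusted p = 1.1e-08), a ratio of 3.52, whereas CYP71B28 fell by 0.94. Replicates A2 and C2 of ATGE_7, at 17 and 16.1 for CYP71B29, were below the filter intensity of 22.8. The size of its ratio to soil therefore rests on a signal close to the array's floor. On sucrose medium CYP71B29 was higher than in soil seedlings by 1.54 in ATGE_97 (SE 0.15, adjusted p = 1.8e-08), and CYP71B28 was not called (-0.09, adjusted p = 0.51). CYP71B29 was lower in ATGE_101 than in ATGE_97 (28 against 69, difference -1.13, adjusted p = 6.8e-06), where CYP71B28 was higher by 0.46. On sucrose in ATGE_101 against ATGE_100, CYP71B29 had 29.7, 24 and 30.4, against 43.1, 38.6 and 49.4.

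Of the genes that follow CYP71B34 on the chromosome, CYP71B35 exceeded the filter intensity on 16 arrays and CYP71B36 on 3. CYP71B35 had 15.4, 12.8 and 8.58 in ATGE_96, against 23.9, 14.2 and 21.8 in ATGE_7, all but 1 of them below the filter. Its lower call there (-0.49, adjusted p = 0.042) was lost in 7 of 15 alternatives, among them the omission of replicate A2 or C2 of ATGE_7 or replicate B or C of ATGE_96 (adjusted p between 0.063 and 0.19).

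**Figure D5:**
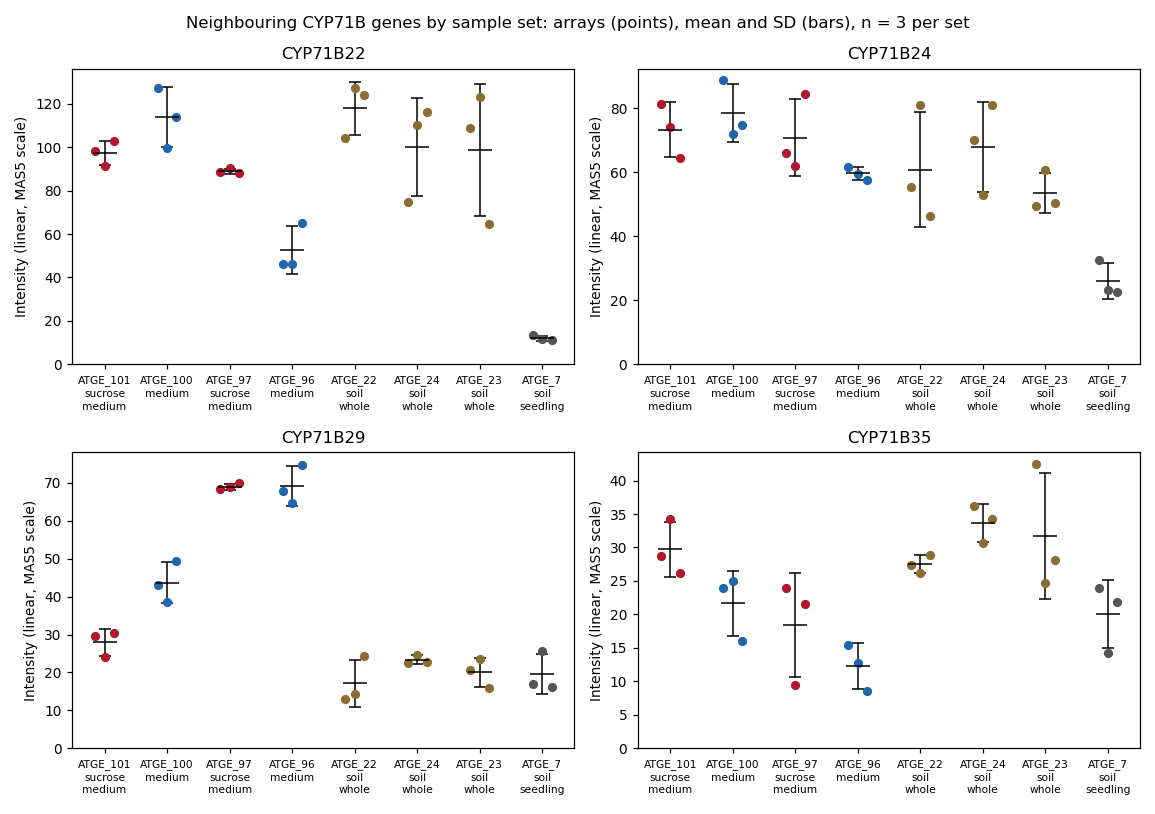
Intensity (linear axis from 0) of CYP71B22, CYP71B24, CYP71B29 and CYP71B35 on each of the 24 arrays, with points, bars, colours and set order as in the plot of the 4 genes. CYP71B22 lay between 11.2 and 13.4 in ATGE_7 and between 46.3 and 127 in all other sets, and CYP71B29 was highest in ATGE_97 and ATGE_96.

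Over the 8 set means, the profiles of CYP71B26 and CYP71B34 were the most alike of the 4 genes (Pearson r = 0.82 on the log2 scale). The other 5 pairs had r between -0.25 and 0.52. These are descriptions over 8 points that share arrays, with no test. Among 1191 tested probe sets with a gene symbol, those closest to CYP71B23 were RTH, a homolog of a regulator of the ethylene receptor (r = 0.965), COAD, an enzyme of coenzyme A synthesis (r = 0.952), and psbA, the chloroplast gene of the D1 protein of photosystem II (r = 0.938). RTH had a mean of 154 in ATGE_96, against 89.7 in ATGE_7. Closest to CYP71B26 were UGT72E2, a glucosyltransferase of lignin precursors (r = 0.861), PCME, a prenylcysteine methylesterase (r = 0.855), and the protein kinase gene ATMRK1 (r = 0.852). UGT72E2 averaged 42.6 in ATGE_97, against 28.1 in ATGE_96, and 43.4 in ATGE_101, against 31.4 in ATGE_100.

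The gene closest to CYP71B28 was another of the family, CYP71B35 (r = 0.958). CYP71B35 averaged 33.6 in ATGE_24, the highest of its set means, and 12.3 in ATGE_96, the lowest, and the same sets were the extremes of CYP71B28. No ATGE_96 array of CYP71B35 exceeded the filter intensity, so the low end of its profile lies close to the array's floor. CSN5B, a subunit of the COP9 signalosome (r = 0.956), and ICDH, an isocitrate dehydrogenase (r = 0.955), followed. Closest to CYP71B34 were P1R1 (r = 0.895), PCME (r = 0.894) and PDIL5-1, a protein disulfide isomerase-like protein (r = 0.88).

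Outside the subfamily, 4 P450 genes had a probe set annotated to them alone, and others may be among the probe sets without an annotated gene. CYP79A2 and CYP51G2 never passed the filter. CYP78A9, known for its effect on fruit and seed size, was called higher on sucrose in both pairs, with a mean of 16.6 in ATGE_97, against 10.3 in ATGE_96 (0.43, adjusted p = 0.047, with overlapping arrays), and 23.9 in ATGE_101, against 11.5 in ATGE_100 (0.77, adjusted p = 0.0023). All its arrays in ATGE_97, ATGE_96 and ATGE_100 were below the filter intensity of 22.8, close to the array's floor. The CYP78A9 calls were not recomputed under the alternatives. CYP78A9 was lower in ATGE_96 than in ATGE_7 (10.3 against 31, -1.15, adjusted p = 2.4e-06). CYP84A4 was not called in either sucrose comparison. The lists of P450 genes of glucosinolate and camalexin synthesis (8 loci), of hormone metabolism (18 loci) and of phenylpropanoid synthesis (7 loci), and of P450 redox partners (8 loci), had 0 loci with a probe set annotated to them alone and were not analysed here.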

How the data were processed

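Each of 24 one-colour arrays carried biotin-labelled total RNA. The authors deposited 1 linear intensity per probe set and array, made with MAS5 per the submitters' processing notes, its version not given in the sources used here. The titles give the set of each sample. Leaving out 64 controls, a probe set was tested if above 22.8, the 40th percentile of all values, on at least 3 arrays (15477 of 22746). The log2 of intensity plus 6.75, the 20th percentile, was fitted without further normalization in limma 3.58.1 (R 4.3.3; data.table, version 1.17.8), with 8 set means over 24 arrays, two-sided (degrees of freedom 16 residual, 4.77 prior), and Benjamini-Hochberg adjustment over all probe sets tested. Within each set, no 2 arrays held an identical value for any probe set that is not a control. Arrays of different sets were not compared in this way.

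The genes and lists were chosen with earlier results of these data known. Named are the 4 genes, some of the other CYP71B and P450 genes called (up to 4 a direction), and the 3 closest profiles per gene. Probe sets were named from the platform annotation: 13513 had 1 gene, 503 several and 8730 none. RefSeq (TAIR10.1) gave names and neighbours only. Alternatives were other pseudocounts, filters, normalizations, variance models and sample choices, and a replicate block. The omission of the 3 arrays of lowest BioB intensity was chosen after seeing the data. The script was tested on simulated data.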

Additional observations from a re-analysis of the deposited data

Results flagged for a closer look

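By the test of the difference itself, the sucrose effect was called different between the pairs for 2 of the 11 CYP71B genes tested. Both were called lower in the second pair, beside 6.61% lower and 5.36% higher among all probe sets tested. CYP71B34 rose by 0.39 in ATGE_97 against ATGE_96 and differed by -0.07 in ATGE_101 against ATGE_100, so that the second effect minus the first was -0.46 (limma, adjusted p = 0.028, between 0.009 and 0.079 over 22 alternatives). That call was lost in 7 of them, each leaving out 1 array, namely replicate B or C of ATGE_96, ATGE_97 or ATGE_101, or replicate A of ATGE_100. CYP71B22 rose by 0.7 in ATGE_97 against ATGE_96 and differed by -0.2 in ATGE_101 against ATGE_100, a difference of effects of -0.91 (adjusted p = 0.023, between 0.0024 and 0.13 over 22 alternatives, with the call lost in 5 of them, namely without the 3 arrays of lowest BioB intensity, replicate A or B of ATGE_96, replicate A of ATGE_100 or replicate B of ATGE_101). The actin 3′ to 5′ ratio, 8.62 in ATGE_101 and 3.6 in ATGE_100 but 3.8 in ATGE_97 and 4.12 in ATGE_96, also differed between the pairs, and its part was not tested.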

How the results depend on the processing

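Of 876 recomputed differences of the 4 genes, 830 kept direction and side of the threshold, 31 lost a call, 6 gained one and 9 changed sign, none of these 9 having been called. The replicate letters did not pair the arrays (correlation of same-letter deviations -0.18 to 0.16, median 0), and with the letter as a replicate block the numbers of the 4 genes called were the same as without it in all 12 comparisons, for example 3 in ATGE_97 against ATGE_96 and 2 in ATGE_101 against ATGE_100. Without the 3 arrays of lowest BioB intensity, 1 gene in place of 2 was called in ATGE_101 against ATGE_100, and 1 in place of 2 in ATGE_100 against the whole plants. With only the sets compared in the model, 2 genes in place of 1 were called for the difference of sucrose effects, and 1 in place of 3 was called in ATGE_22 against ATGE_23 and ATGE_24. Leaving out 1 array at a time, the counts ran from 0 to 1 for the difference of sucrose effects, 1 to 3 for ATGE_22 against ATGE_23 and ATGE_24, 0 to 1 for ATGE_24 against ATGE_23 and 1 to 2 for ATGE_100 against the whole plants. The changes of sign, with the range over single omissions, were in CYP71B26 for ATGE_24 against ATGE_23 (-0.19 to 0.21, below 0 without ATGE_23 replicate C and, at -0.07, without ATGE_24 replicate A) and for ATGE_100 against whole plants (-0.03 to 0.11, below 0 without ATGE_23 replicate C), and in CYP71B23 for ATGE_100 against whole plants (-0.0045 to 0.19, below 0 without ATGE_24 replicate B) and for ATGE_101 against whole plants (-0.15 to 0.05, above 0 without ATGE_22 replicate B, ATGE_23 replicate B, ATGE_24 replicate A or C, or ATGE_101 replicate C). The cause was not tested. Over all probe sets, calls for the difference of sucrose effects numbered 737 without the low BioB arrays and 3075 with only its sets in the model, against 1853, and calls in ATGE_101 against ATGE_100 numbered 1506 without those arrays, against 2579. With only their sets in the model, ATGE_22 against ATGE_23 and ATGE_24 had 1319 calls (57.3% higher), against 2720 (43.8% higher). For ATGE_24 against ATGE_23 calls ranged from 0 with only its sets, through 76 with no filter, 61 without the low BioB arrays and 44, 75 and 368 without ATGE_24 replicate C, ATGE_23 replicate B and ATGE_24 replicate B, against 132, and scaling to a common 75th percentile made 34% of them higher, against 49.2%. The number of arrays per set limits the precision, and the CYP71B23 values in ATGE_7 lie near the floor, which limits the size of any ratio against them.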
